A study of Mus musculus with 18 samples.

Results

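The step from 4 h to 8 h of cold storage in the right ventricle (RV) of mouse donor hearts was described from 6 of the 18 RNA-seq libraries of the series, the 3 libraries labelled RV_8h and the 3 labelled RV_4h. The hearts came from C57B/L6 mice labelled as 12 weeks old, were flushed with HTK (histidine-tryptophan-ketoglutarate) preservation solution, were kept in ice-cold HTK for 4 or 8 h, and were then perfused with warm Krebs buffer for 1 h before RV was frozen. The 3 RV libraries of 0 h were flushed and perfused in the same way without storage, and left ventricle (LV) libraries exist for each time, so that no library of the series is from an unperfused heart. All 34989 genes of the annotation were considered, of which 14622 had enough counts to be tested across the 9 RV libraries. The perfusate was a buffer, so that the only blood cells were those still in the heart. The labels give neither sex nor an animal number and do not say whether each library is 1 heart, so that p-values measure the spread between these libraries. Depth ranged from 24832857 to 43417220 estimated counts over these 6 libraries. The ventricular muscle genes Myh6, Myl2, Tnnt2, Tnni3, Actc1 and Ryr2 were abundant in every library, with a sum between 24875 and 55460 CPM (the counts of a gene relative to all counts of the library, on the usual CPM scale). Levels of single genes are given below as CPM on a library total scaled by the trimmed mean of M values, which compares a gene between libraries and not with other genes, while sums of cell type markers use the unscaled total.

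A cell that detects foreign or misplaced nucleic acid, or that is exposed to interferon, switches on a shared set of genes. Receptor-bound JAK kinases activate STAT proteins, which with IRF9 bind a DNA element called the ISRE or, after interferon gamma, bind a palindrome called GAS. Among the targets are antiviral proteins, guanylate-binding and other large GTPases, the peptide-loading machinery of MHC class I, and the chemokines that attract T cells. Heart muscle, in contrast, is known for very high expression of contractile, calcium-handling, and mitochondrial genes, and heat shock proteins are made when folded proteins are damaged.

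Promoter windows of 5 interferon-induced genes are shown because 49 of the 222 genes called higher after 8 h, in a paired fit described further on, belonged to lists of interferon, sensor and MHC class I genes. These lists held 87 of the 14622 genes tested. Each window runs from 250 bases before to 50 bases after the start site of the RefSeq gene on GRCm38.p6 and is written 5′ to 3′ on the strand of the gene. Capitals mark matches to the ISRE letters GAAANNGAAA or their reverse complement TTTCNNTTTC and, in Gbp5 only, also to the GAS letters TTCNNNGAA, which read the same on both strands.
Ifit1 (chr19:34640639-34640938, plus strand): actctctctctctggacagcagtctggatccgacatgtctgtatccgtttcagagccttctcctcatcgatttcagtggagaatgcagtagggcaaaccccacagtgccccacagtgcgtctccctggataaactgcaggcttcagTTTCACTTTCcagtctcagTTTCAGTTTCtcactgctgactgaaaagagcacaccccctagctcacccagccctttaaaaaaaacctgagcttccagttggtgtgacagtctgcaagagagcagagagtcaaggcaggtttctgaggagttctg
Isg15 (chr4:156200769-156201068, minus strand): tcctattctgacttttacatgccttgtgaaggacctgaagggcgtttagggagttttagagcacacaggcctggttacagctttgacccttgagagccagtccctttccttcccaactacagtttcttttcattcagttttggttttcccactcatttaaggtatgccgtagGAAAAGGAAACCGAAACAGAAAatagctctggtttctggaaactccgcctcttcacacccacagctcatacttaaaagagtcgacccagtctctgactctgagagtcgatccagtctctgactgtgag
Gbp2 (chr3:142620413-142620712, plus strand): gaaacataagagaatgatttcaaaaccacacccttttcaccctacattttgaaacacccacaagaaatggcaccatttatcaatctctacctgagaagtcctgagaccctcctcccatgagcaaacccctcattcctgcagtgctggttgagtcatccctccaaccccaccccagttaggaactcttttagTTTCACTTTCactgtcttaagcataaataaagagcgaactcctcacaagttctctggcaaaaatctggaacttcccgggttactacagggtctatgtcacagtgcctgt
Gbp5 (chr3:142496684-142496983, plus strand): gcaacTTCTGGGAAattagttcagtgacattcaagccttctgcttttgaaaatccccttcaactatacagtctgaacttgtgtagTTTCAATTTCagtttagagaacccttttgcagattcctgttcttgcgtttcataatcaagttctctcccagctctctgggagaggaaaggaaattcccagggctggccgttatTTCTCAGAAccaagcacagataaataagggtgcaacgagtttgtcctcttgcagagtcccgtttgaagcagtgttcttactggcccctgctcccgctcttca
Cxcl10 (chr5:92348840-92349139, minus strand): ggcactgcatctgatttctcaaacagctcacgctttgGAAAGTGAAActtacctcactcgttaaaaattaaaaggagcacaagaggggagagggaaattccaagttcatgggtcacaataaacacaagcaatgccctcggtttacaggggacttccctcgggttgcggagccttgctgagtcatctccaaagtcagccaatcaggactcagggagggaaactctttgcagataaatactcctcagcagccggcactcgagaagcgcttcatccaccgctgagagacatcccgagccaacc
Isg15, the ubiquitin-like modifier, held 3 overlapping matches between 78 and 57 bases before its start site, and Ifit1, an RNA-binding antiviral protein, held 2 between 104 and 76 bases before it.

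Of the 14622 genes tested, edgeR's quasi-likelihood test called 0 higher (0%) and 0 lower (0%) after 8 h than after 4 h when both a p below 0.1 after Benjamini-Hochberg adjustment and more than a 1.5-fold change were required, and its smallest adjusted p was 0.599. At an unadjusted p under 0.05 it listed 632 higher genes (4.32%) and 329 lower genes (2.25%), and DESeq2 called 29 higher and 14 lower genes. Libraries with the same replicate number deviated together, with correlations across genes of 0.45, 0.34 and 0.49 for numbers 1, 2 and 3 of 4 h and 8 h. Between unequal numbers of 4 h and 8 h the correlations ran from -0.52 to 0.24. Deviations were taken from the mean of each group of 3, so that positive values for equal numbers push those for unequal numbers down. With the number as a replicate block in the 9 RV libraries, 0 genes were called and 1263 higher (8.64%) and 1000 lower genes (6.84%) had an unadjusted p under 0.05. A paired fit restricted to the 6 libraries of 4 h and 8 h, chosen after the data had been seen, called 222 of 14202 genes higher (1.56%) and 16 lower (0.113%), with a smallest adjusted p of 0.0487. In what follows a gene is said to have risen or fallen only where this paired fit called it, and each such call rests on 3 pairs with 2 residual degrees of freedom. The labels do not say what a replicate number stands for, and hearts stored for 4 h and 8 h were different hearts. Without regard to pairs, all 3 libraries of 8 h lay above all 3 of 4 h in 815 genes (5.57%) and below them in 1031 genes (7.05%). The unpaired log2 fold change was above 0 in 7501 of the 14622 genes and below 0 in 7109. Counts of list members given as higher or lower refer to this sign, unless pairs or libraries are named.

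The 3 numbers did not behave alike, and this touches every result below. Replicate 3 stood apart at both times through its interferon-induced genes, and 193 of the 222 genes that rose had their highest level in replicate 3 at 4 h and again at 8 h, against 21% of all genes tested. The summed Y-linked genes Ddx3y, Eif2s3y, Kdm5d and Uty stood at 4.72 and 6.38 CPM in replicate 3 at 4 h and 8 h and between 148.1 and 184 CPM in the other 4 libraries. At 0 h the low library was instead replicate 2, at 5.69 CPM. Within the 6 libraries of 4 h and 8 h a low Y-linked level and replicate number 3 coincided, so that they cannot be told apart there. Whether these levels have a part in the results was not tested. Without replicate 3 of 8 h alone, which leaves replicate 3 of 4 h in place, the unpaired medians of the 6 interferon, sensor and MHC lists turned negative, at -0.29 for antiviral genes, -0.12 for GTPases, -0.14 for transcription factors, -0.44 for CXCR3 ligands, -0.007 for sensors and -0.08 for MHC class I. Without both replicate 3 libraries these 6 medians stayed above 0.

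**Figure D1:**
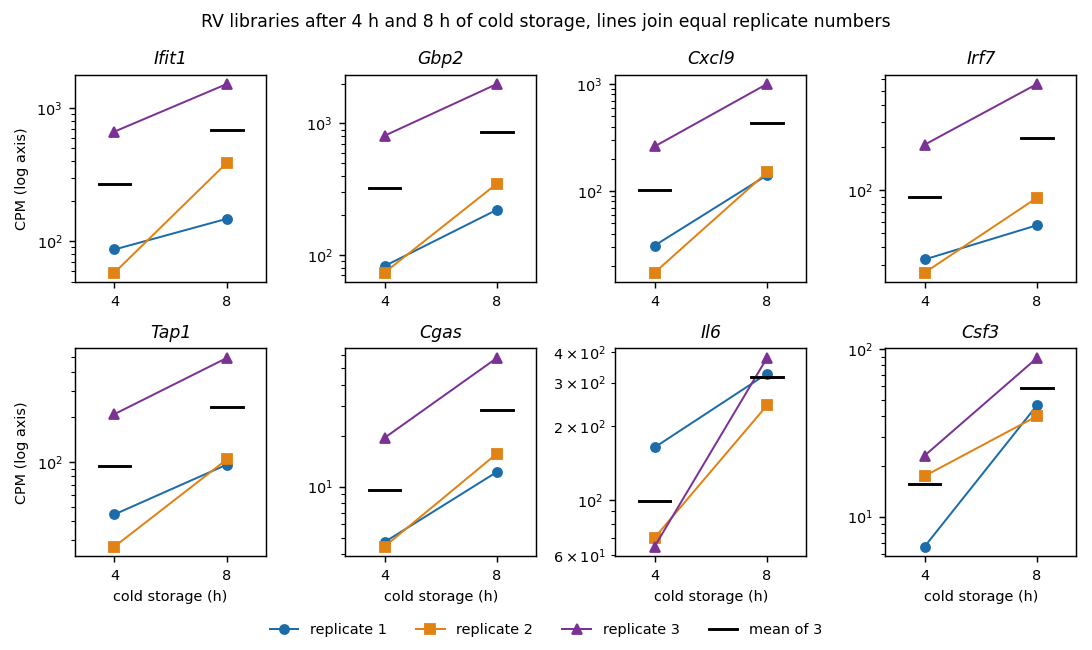
CPM on log axes against hours of cold storage for 8 genes that are interferon-induced or cytokine genes. Points are single RV libraries, lines join libraries with the same replicate number, and black bars are means of 3. In Ifit1, Gbp2, Irf7, Tap1 and Cgas replicate 3 lies above the others at both times while each line rises, and in Il6 and Csf3 the 3 libraries of 8 h lie above the 3 of 4 h.

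All 33 genes of the antiviral list had a higher level after 8 h in each of the 3 pairs, against 3259 of the 14622 genes tested. In the paired fit 21 of the 33 rose, against 1.56% of all genes. The median of the list was 1.297 on the log2 scale in the paired fit and 0.93, 1.83 and 1.17 in pairs 1, 2 and 3, where the median over all genes was 0.04 in the paired fit. Ifit1 stood at 87, 58.3 and 665 CPM in replicates 1, 2 and 3 of 4 h and at 148, 388 and 1514 CPM in those of 8 h. Replicate 3 of 4 h was above replicates 1 and 2 of 8 h, so that the groups overlapped, and the paired log2 fold change of 1.58 ± 0.37 (SE) had an adjusted p of 0.169. Isg15 rose from 46.2, 29.9 and 211 CPM to 82.3, 124 and 582 CPM, a paired log2 fold change of 1.48 ± 0.26 (edgeR adjusted p = 0.0815). Mx2, a dynamin-like GTPase that blocks viruses, had the highest unpaired fold change of the list, with 20.2, 16.4 and 225 CPM after 4 h and 40.7, 116 and 615 CPM after 8 h. The unpaired fit gave it a log2 fold change of 1.56 ± 1.097 and the paired fit 1.78 ± 0.33, so that the size was alike and the standard error smaller where pairs were compared. Mx1 rose from 12, 8.69 and 99.2 CPM to 17.6, 24.7 and 238 CPM, and Rsad2 (viperin) stood at 87.2, 62.6 and 1426 CPM and then 156, 437 and 2967 CPM with an adjusted p of 0.184. The lowest fold change belonged to Oas3, a sensor of double-stranded RNA, at 0.67 ± 0.25 in the paired fit (adjusted p = 0.319). Oas2, of the same family, rose from 16.4, 19 and 77.3 CPM to 36.5, 35.6 and 234 CPM.

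The large interferon-induced GTPases, which attack membranes around intracellular pathogens, had the largest share of calls among the lists. Of the 14 genes, 13 rose (1.56% of all genes did) and all 14 were higher in each pair. The list median was 1.65 on the log2 scale in the paired fit. Gbp2 rose from 82.3, 73.3 and 807 CPM to 221, 349 and 1998 CPM, with a paired log2 fold change of 1.69 ± 0.25 (adjusted p = 0.0676). Igtp rose from 45, 26.3 and 199 CPM to 118, 89.2 and 473 CPM (1.49 ± 0.18, adjusted p = 0.0676). Irgm1, which controls the other immunity-related GTPases, rose by 1.28 ± 0.23, and its relative Irgm2 was the 1 member not called, at 0.94 ± 0.21 (adjusted p = 0.13). Tgtp1 had the highest unpaired value and stood at 29.7, 18.3 and 146 CPM after 4 h and 75.3, 97 and 349 CPM after 8 h. Kallisto divides reads between near-identical transcripts, so that single members of the Gbp, Tgtp, Oas, Slfn and H2 families are less certain than the group.

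The ISRE letters occurred in 9 of the 10 GTPase genes with a promoter window (90%) and in 13 of 25 antiviral genes (52%). Of all tested genes with a window, 438 of 10953 held them (4%). Of the 222 genes that rose, 155 had a window and 46 of these held the ISRE letters (29.7%). None of the 13 genes that fell and had a window did. The GAS letters were found in 6 of the 10 GTPase genes (60%) and in 8.45% of all tested genes with a window. A gene counted when any of its windows matched. Windows were matched by gene symbol, and a match describes the letters only.

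No interferon or receptor gene was called. Ifnb1 (interferon beta) was low, at 4.77, 2.23 and 0.173 CPM after 4 h and 2.6, 1.88 and 0.8 CPM after 8 h. Its paired log2 fold change was -0.020 ± 0.502. What induced the genes of the other lists was not tested. Ifnar1, a subunit of the type I receptor, stood at 31, 29.7 and 30.1 CPM and 37.7, 29.5 and 39.6 CPM, and Ifngr1 of the type II receptor at 44.8, 51.1 and 60.8 CPM and 54.8, 50.2 and 104 CPM. None of the 5 tested genes of this list was called, and Ifng, Ifna4 and Ifna2 had too few counts to test. Among the transcription factors 3 of 9 rose, against 1.56% of all genes. Irf7, the factor that amplifies type I interferon production, rose from 32.7, 26.4 and 209 CPM to 56.9, 88.7 and 557 CPM (1.35 ± 0.23, adjusted p = 0.077). Stat2 and Irf9, which bind together at the ISRE, rose by 0.91 ± 0.18 and 0.89 ± 0.17. Irf1 was not called (0.601 ± 0.26). Stat3, which carries IL-6 signals, was at 387, 342 and 444 CPM after 4 h and 354, 294 and 437 CPM after 8 h.

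The 3 ligands of CXCR3, a chemokine receptor of activated T cells, had the largest median of any list, 2.24 on the log2 scale. Cxcl9 rose from 31, 17.3 and 262 CPM to 141, 149.9 and 1003 CPM, a paired log2 fold change of 2.44 ± 0.25 (adjusted p = 0.0487), and was among the genes with the smallest adjusted p. Cxcl11 rose from 0.844, 0.654 and 19.6 CPM to 3.73, 5.68 and 65.2 CPM (2.24 ± 0.25). Cxcl10 was higher in each pair, at 80.2, 76.6 and 1138 CPM and then 185, 439.6 and 2276 CPM, with an adjusted p of 0.105. Markers of T and NK cells were close to 0, with a sum of 8 genes between 1.12 and 4.35 CPM in the 6 libraries.

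Of 16 Toll-like receptors, cytosolic sensors and adaptors 6 rose, against 1.56% of all genes. Cgas, the enzyme that senses cytosolic DNA, rose from 4.7, 4.42 and 19.4 CPM to 12.2, 15.7 and 57.6 CPM (1.62 ± 0.16, adjusted p = 0.0487). Myd88, the adaptor of most Toll-like receptors, rose from 51, 28.4 and 84.1 CPM to 95.3, 74.5 and 193 CPM (1.195 ± 0.17, adjusted p = 0.0676), and its p in the unpaired test was 0.0219. Tlr3, which senses double-stranded RNA, rose by 0.96 ± 0.17, while Ifih1 (MDA5), a cytosolic sensor of the same ligand, reached 0.902 ± 0.22 with an adjusted p of 0.174. Mavs, the mitochondrial adaptor of the RNA sensors, was lower in each pair without a call, at 48.3, 56.6 and 38.4 CPM and then 38.4, 52.4 and 17.6 CPM.

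All 12 genes of MHC class I presentation had a fitted log2 fold change above 0. In each pair 11 were higher, and 4 rose (1.56% of all genes did). Tap1, a subunit of the peptide transporter, rose from 44.6, 27.1 and 209 CPM to 96, 104 and 496 CPM (1.46 ± 0.21, adjusted p = 0.0676). Nlrc5, the transactivator of these genes, rose from 9.66, 9.15 and 138 CPM to 23, 31 and 375 CPM (1.51 ± 0.18). The immunoproteasome subunits Psmb8 and Psmb9 rose by 1.41 ± 0.19 and 1.17 ± 0.17. The abundant H2-K1 and B2m, which form the presented molecule, were higher in each pair, H2-K1 at 305, 239.9 and 532 CPM and then 490.4, 397 and 1460 CPM, but were not called (adjusted p = 0.188 and 0.142). Psme1, the proteasome activator subunit, was the lowest at 0.091 ± 0.204. Of the 33 constitutive proteasome subunits 29 were lower, with a paired median of -0.14, and 0 were called.

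**Figure D2:**
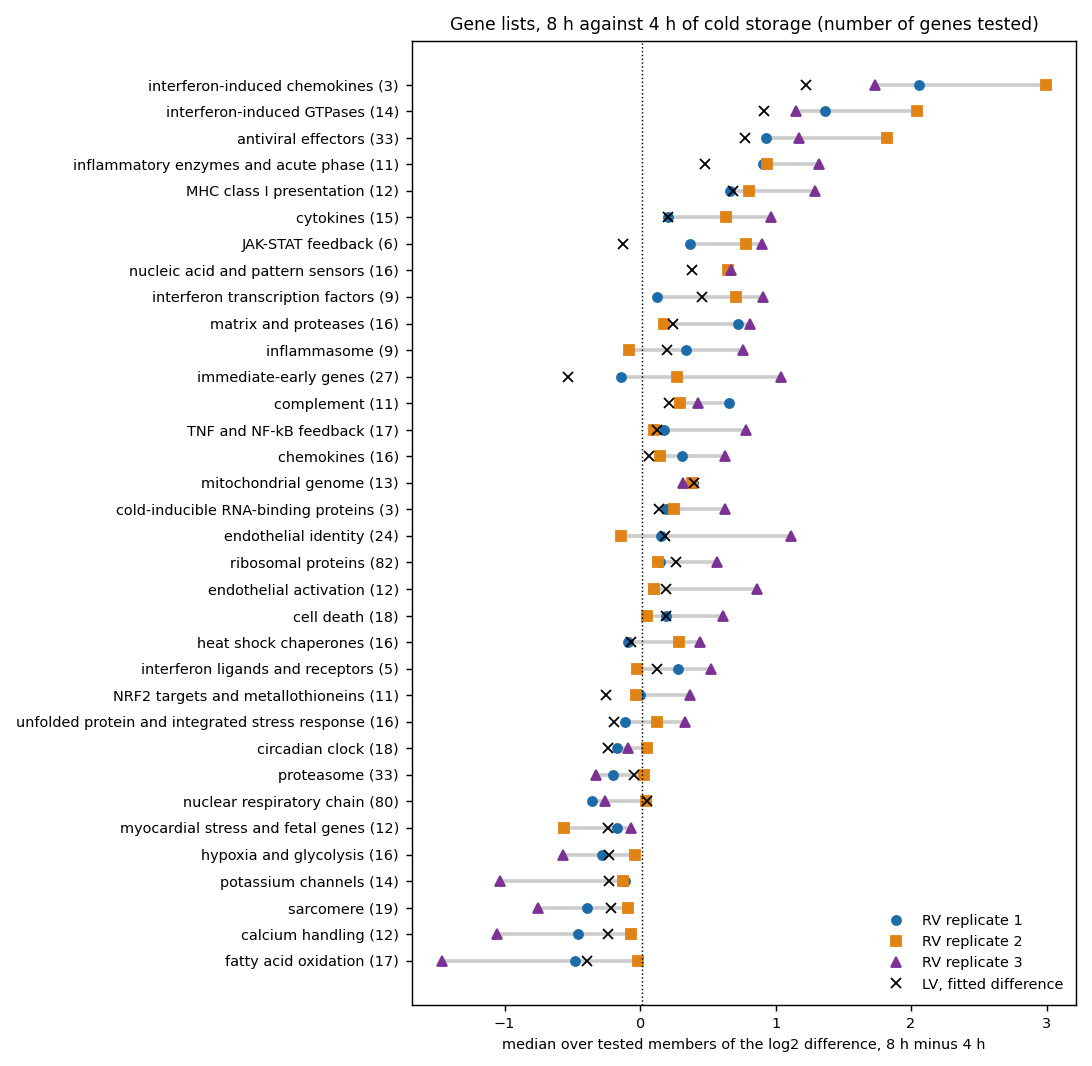
Median over the tested members of each gene list of the log2 difference between 8 h and 4 h, for RV libraries of the same replicate number (circles, squares and triangles) and for the fitted LV difference (crosses), with the number of genes tested in brackets. The dotted line is the median of all genes, 0.01. Lists of interferon-induced genes lie to the right in all 3 pairs, and the medians of calcium handling, sarcomere and fatty acid oxidation spread from near 0 in replicate 2 to the far left in replicate 3.

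Among the 15 cytokines the groups did not overlap in Il6, Csf3, Lif and Il1rn. All 3 libraries of 8 h lay above in these 4, as in 5.57% of all genes. Il6 (chr5:30013114-30019981 of GRCm38) stood at 164, 70.4 and 64.8 CPM after 4 h and at 326, 242 and 378 CPM after 8 h. Every library of 8 h was above every library of 4 h, and the rise was 1.802 ± 0.31 in the paired fit (adjusted p = 0.0824) and 1.66 ± 0.37 in the unpaired fit (unadjusted p = 0.00155). Csf3, the growth factor of neutrophils, rose from 6.63, 17.5 and 23.2 CPM to 46.3, 39.9 and 88.8 CPM (2.005 ± 0.29, adjusted p = 0.0676). Lif, an IL-6 family cytokine, and Il1rn, the natural antagonist of the IL-1 receptor, rose by 0.97 ± 0.17 and 0.98 ± 0.18. Tnf, Il1b and Il10 were not called. Tnf stood at 131, 145 and 76.1 CPM and then 99.5, 92.3 and 81.7 CPM, Il1b at 71.5, 65.1 and 14.3 CPM and then 68.7, 45.3 and 25.9 CPM, and Il10 near 0.988 and 1.27 CPM on average. Of the 15 cytokine genes 5 rose in all, against 1.56% of all genes in the paired fit.

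Of 6 genes that restrain JAK-STAT signals 2 rose, where 1.56% of all genes did. Socs1 rose from 7.98, 4.81 and 20.7 CPM to 14.4, 20.6 and 75.7 CPM (1.64 ± 0.25, adjusted p = 0.0677) and Socs2 by 0.93 ± 0.18. Socs3, the inhibitor of IL-6 receptor signals, was higher in each pair at 499, 263 and 189 CPM and then 687, 484 and 682 CPM (1.09 ± 0.31, adjusted p = 0.242). The repressor Bcl6 was lower in each pair, from 72.1, 68.9 and 107 CPM to 45.9, 54 and 52.3 CPM, with an adjusted p of 0.206. In the NF-kB feedback list 0 of 17 genes were called, and Tnfaip3 stood at 546, 572 and 611 CPM and 539, 568 and 854 CPM. Of 16 other chemokines only Ccl8, a low-level monocyte attractant, rose, from 2.53, 1.19 and 1.91 CPM to 5.11, 2.75 and 5.41 CPM. Ccl2 (MCP1) stood at 458, 352 and 355 CPM and 451, 345 and 519 CPM and Cxcl1 at 609.5, 591 and 449 CPM and 691, 654 and 664 CPM.

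Among the 8 inflammasome genes in the paired fit 2 rose, both caspases, where 1.56% of all genes did. Casp1 rose from 2.67, 3.19 and 12.9 CPM to 4.79, 6.55 and 29.8 CPM (1.07 ± 0.17, adjusted p = 0.0677) and Casp4, the caspase that binds lipopolysaccharide, from 57.7, 46.5 and 102 CPM to 96.4, 90.8 and 270.1 CPM (1.07 ± 0.202). Nlrp3, the sensor, stood at 44.2, 53.5 and 20.7 CPM and then 36.7, 41.9 and 23.2 CPM (-0.12 ± 0.17), and Pycard (ASC), the adaptor, at 4.87, 5.46 and 6.9 CPM and 5.53, 4.37 and 6.21 CPM (-0.060 ± 0.19). Gsdmd, the pore protein, was higher in each pair (0.65 ± 0.19) with an adjusted p of 0.25. Mlkl, the executor of necroptosis, rose by 1.26 ± 0.19, the only call among 18 cell death genes, and Bax reached 0.29 ± 0.18 without a call.

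Enzymes and acute phase proteins induced by inflammation were higher after 8 h in each pair in all 11 tested genes of 12 listed. Of these 5 rose, where 1.56% of all genes did. Has1, which makes hyaluronan, rose from 26.1, 14.4 and 11.9 CPM to 65.1, 43.3 and 91.5 CPM without overlap (1.96 ± 0.32, adjusted p = 0.076). Lcn2, an iron-sequestering protein, rose from 5.16, 5.04 and 34.6 CPM to 15.4, 12.1 and 86.2 CPM (1.42 ± 0.15). Acod1, the enzyme that makes itaconate, Saa3, an acute phase protein, and Ch25h, which makes 25-hydroxycholesterol, rose by 1.02 ± 0.15, 0.93 ± 0.17 and 1.101 ± 0.16. Ptgs2 (COX-2) was at 134, 181 and 108 CPM and then 249, 246 and 318 CPM, above in all 3 libraries but not called (adjusted p = 0.206). In the complement list of 11 genes only Cfb, a factor of the alternative pathway, rose (1.42 ± 0.22). Macrophage markers summed to 314, 334 and 258 CPM after 4 h and 536, 325 and 281 after 8 h, and the neutrophil genes S100a8, S100a9, Ly6g, Retnlg, Mmp8 and Ngp did not have enough counts to test, with a summed level of all 8 neutrophil markers between 5.34 and 10.1 CPM after 4 h and between 11.5 and 19.0 after 8 h. Of the 2 neutrophil markers tested, Csf3r, the receptor of the Csf3 product, rose from 3.93, 6.15 and 8.74 CPM to 12.8, 11.5 and 14.6 CPM without overlap (1.14 ± 0.21, adjusted p = 0.0852). The other, Cxcr2, was not called and was lower after 8 h in replicates 1 and 2. On the unscaled total it stood at 1.06, 0.773 and 1.24 CPM and then 0.835, 0.606 and 3.24 CPM. Of 12 macrophage markers Fcgr1, an Fc receptor, rose from 1.57, 1.27 and 10.6 CPM to 4.47, 3.76 and 17.4 CPM (1.25 ± 0.21). The part of such cells in these values was not tested, and in bulk tissue more cells of a type and more RNA per cell cannot be told apart.

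Of the 222 genes that rose, 68 were in the lists, 49 of them in the 6 lists of interferon, sensor and MHC genes. Those 6 lists held 87 of the 14622 genes tested. Zfp46 (chr4:136284683-136293942 of GRCm38), a zinc finger gene, had the smallest unpaired p of any higher gene, 8.22e-05. It stood at 39.8, 43.2 and 48.5 CPM at 0 h, 37.8, 46.8 and 50.4 CPM after 4 h and 99.6, 102 and 159 CPM after 8 h, so that the 0 h and 4 h values overlapped and all 8 h values were higher. Tfpi2, an inhibitor of coagulation proteases, rose from 11.9, 4.96 and 5.79 CPM to 35.3, 14.5 and 26.5 CPM (1.799 ± 0.197, adjusted p = 0.0487). Anxa1, a lipid-binding protein with anti-inflammatory action, rose from 60.1, 36.1 and 44.8 CPM to 111, 81.8 and 136 CPM (1.25 ± 0.200). Tsku, Sowahc and Cdr2l rose as well, by 1.304 ± 0.196, 1.01 ± 0.17 and 1.25 ± 0.21, and in each the groups did not overlap. Klf11, Ralgds and B4galt3 did not overlap either and were not called (adjusted p = 0.16, 0.143 and 0.143).

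Some further genes are named here after their values were seen. Serpina3g, a protease inhibitor of the interferon-induced Serpina3 cluster, had the smallest paired p and went from 2.27, 3.11 and 28.2 CPM to 8.58, 10.7 and 97.3 CPM (1.86 ± 0.15, adjusted p = 0.0487). Slc10a6, a steroid sulfate transporter, rose from 9.88, 6.46 and 19.9 CPM to 29, 21.3 and 55.7 CPM (1.61 ± 0.14), and Tmem252 from 1.18, 1 and 3.61 CPM to 4.47, 4.2 and 18.5 CPM (2.17 ± 0.202). Gja4, the arterial gap junction protein connexin 37, rose from 3.01, 2.85 and 6.83 CPM to 12.9, 7.69 and 21.8 CPM (1.78 ± 0.19) with 4.01, 5.7 and 7.51 CPM at 0 h. Pfkfb3, which drives glycolysis, and Kcna5, a potassium channel, were the only called members of their lists, at 1.09 ± 0.19 and 0.99 ± 0.17.

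In each of the 16 genes that fell, all 3 libraries of 8 h lay below all 3 of 4 h. In 15 of the 16 the level after 4 h was above that at 0 h, with a median of 1.56 on the log2 scale for the first step and -1.29 for the second. Both steps use the same libraries of 4 h, so that these signs are not independent. Cenpa (chr5:30666777-30674830 of GRCm38), the histone variant of centromeres, had the smallest unpaired p of all genes, 5.92e-05. It stood at 38.9, 29 and 44 CPM at 0 h, 68.7, 84.2 and 95.4 CPM after 4 h and 34.3, 28.5 and 21.4 CPM after 8 h, with -1.54 ± 0.22 in the paired fit (adjusted p = 0.0676). Rfx2, a transcription factor of ciliary genes, went from 10.9, 10.2 and 5.17 CPM to 43.2, 49.2 and 51.2 CPM and then fell to 21.4, 13.8 and 20.4 CPM (-1.35 ± 0.19). Xirp1, an actin-binding protein of the intercalated disc induced by stretch, went from 374, 262 and 155 CPM to 1412, 1142 and 749.7 CPM and fell to 638, 463 and 284 CPM (-1.25 ± 0.204). Klhl40, which stabilises thin filaments, and Lmcd1, a LIM domain coregulator, fell by 1.33 and 1.25 on the log2 scale.

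Genes of metabolism and mitosis were among the rest. Slc25a36, a mitochondrial pyrimidine nucleotide carrier, fell from 107, 104 and 87.8 CPM to 53.8, 60.0 and 37.4 CPM. Bdh1, the ketone body dehydrogenase, fell from 55.3, 65.5 and 48.2 CPM to 36.6, 28.9 and 21.4 CPM, and Nmrk2, a muscle enzyme that makes NAD, from 23.7, 20.0 and 15.1 CPM to 12.1, 5.5 and 4.15 CPM. Kif11, the motor that separates spindle poles, was low at 0.693, 0.829 and 0.99 CPM at 0 h, 4.07, 5.81 and 3.78 CPM after 4 h and 1.93, 2.14 and 1.56 CPM after 8 h. Ypel2 fell most among genes with counts in all libraries, from 60.0, 90.0 and 65.8 CPM to 35.3, 17.1 and 12.2 CPM (-1.84 ± 0.32). Scd4, Tmem267, Otud1, Nuak1 and BC067074 fell by between 0.82 and 1.51 on the log2 scale. Nanp was listed at 0 in all 3 libraries of 8 h and at 0.458, 0.884 and 0.659 CPM after 4 h, and no fold is given for it. Ankrd10, Efna1, Dusp10, Abca4 and Cmbl were below in all 3 libraries of 8 h without a call.

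**Figure D3:**
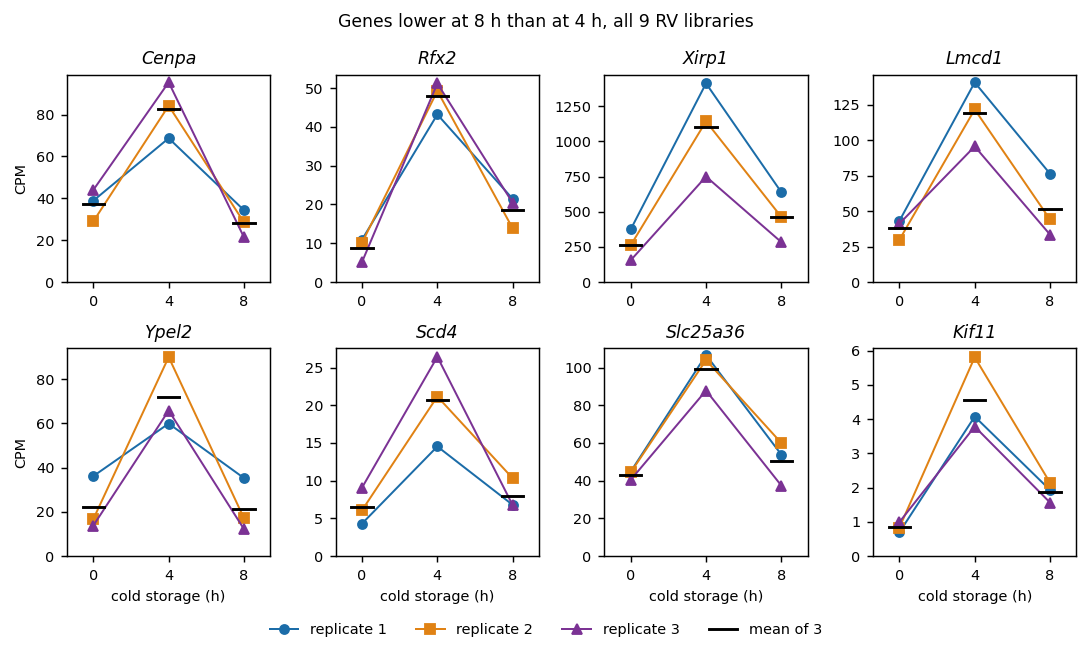
CPM against 0, 4 and 8 h of cold storage in RV for 8 of the genes that fell. Points are single libraries, lines join equal replicate numbers, and black bars are means of 3. In each gene the 3 values of 4 h lie above those of 0 h and those of 8 h.

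Whether the second step differed from the first was tested gene by gene in the 9 RV libraries. The step from 4 h to 8 h was larger, in the sense of more positive, than that from 0 h to 4 h in 1 gene (0.00684%) and smaller in 19 genes (0.13%), and with the replicate block in 12 (0.0821%) and 72 genes (0.492%). The 1 gene was Tmem204, an endothelial membrane protein, which went from 20.8, 25 and 36.4 CPM at 0 h to 6.7, 9.11 and 6.1 CPM and then 12.3, 10.7 and 12.8 CPM. Of the 19, 16 had a fitted first step above 0 and a fitted second step below 0. Kif11, Rfx2, Cenpa, Dusp10, Arl13b, Rasgef1b, Klf5 and Foxj1 were of this kind. Their differences of steps lay between -4.59 for Foxj1 and -2.55 for Dusp10 on the log2 scale. In Foxj1 the libraries of 4 h and 8 h overlapped, and its second step alone was only -0.19 ± 0.35 in the unpaired fit. Dusp10, a phosphatase of stress kinases, went from 6.79, 8.75 and 7.63 CPM to 29.6, 29.3 and 25.4 CPM and then 21, 16.5 and 14.8 CPM. Il1rn and Trim30c were higher after both steps but less so in the second, Il1rn from 1.59, 1.29 and 0.607 CPM at 0 h to 26.6, 22.1 and 29.2 CPM and 58.6, 51.8 and 40.6 CPM (-3.52 ± 0.48, adjusted p = 0.0488). None of the 19 was called when any 1 of RV_0h replicate 2 or RV_4h replicates 1, 2 or 3 was left out.

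Of 16 heat shock chaperones 6 lay above in all 3 libraries of 8 h (5.57% of all genes did), 2 lay below, and 0 were called. Hspa1b, the inducible HSP70, stood at 487, 313 and 228 CPM after 4 h and 799.7, 685 and 2857 CPM after 8 h, with 2.08 ± 0.62 in the unpaired fit (unadjusted p = 0.00981) and 1.798 ± 0.54 in the paired fit (adjusted p = 0.289). Replicate 3 of 8 h was far above the other 2 and was the lowest of its group at 4 h. The near-identical copy Hspa1a stood at 633, 452 and 361 CPM and 887, 879.7 and 2926 CPM, and reads of these copies cannot be assigned with certainty. Hsph1 (HSP110), a nucleotide exchange factor of HSP70, was at 219.6, 127 and 90.5 CPM and then 239, 225 and 818 CPM. Dnajb1, a cochaperone of HSP70, was at 224, 135 and 95 CPM and then 336, 316 and 446 CPM (1.37 ± 0.33, adjusted p = 0.174). The small chaperone Hspb7 of heart muscle was below in all 3 libraries (1388, 1533 and 1373 CPM and then 1108, 998 and 659.5 CPM).

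The same step was compared with that of LV, where replicate numbers mark libraries that deviate together and are read as LV and RV of a heart. Of the 222 genes that rose in RV, 219 had a fitted LV step above 0, with an LV median of 0.81 on the log2 scale. All 16 genes that fell in RV had a fitted LV step below 0, with an LV median of -1.18. Since LV and RV are read as the same hearts, these signs are not independent. Without the heart as a block 0 genes differed (0%), and 215 had an unadjusted p under 0.05. With the heart as a replicate block 54 genes had a larger step in RV (0.358%) and 5 a smaller one (0.0331%). These 59 calls became 13 and 4 without heart 1 of 4 h or heart 2 of 8 h, 0 without heart 2 or 3 of 4 h or heart 1 of 8 h, and 400 without heart 3 of 8 h. In 29 of the 54 the fitted step was above 0 in RV and below 0 in LV. Among the 54 was Hspa1b, which in LV went from 955, 1049 and 1079 CPM to 605, 452 and 2152 CPM, so that its step was larger in RV by 2.13 ± 0.36 on the log2 scale (adjusted p = 0.0634). Hsph1 in LV went from 338, 232 and 226 CPM to 193, 148 and 509 CPM, a difference of steps of 1.48 ± 0.195. Hsp90aa1, the inducible HSP90, and Dnaja1 followed with 1.21 ± 0.18 and 1.09 ± 0.16. The LV libraries of 4 h were above those of RV in Hspa1b and Hsph1 for all 3 numbers, and so a difference in level at 4 h enters this comparison.

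Cytokines and early genes were also among the 54. Csf3 went in LV from 7.15, 10.8 and 20.4 CPM to 10.4, 11.6 and 33.9 CPM, with a larger step in RV by 1.495 ± 0.22 (adjusted p = 0.0611). Lif stood in LV at 25.1, 21.5 and 43.5 CPM and then 22.3, 10.8 and 31.3 CPM. It was lower after 8 h in each LV pair, while it rose in RV. The step of Lif was larger in RV than in LV by 1.48 ± 0.26. Ptgs2 and Has1 differed by 1.195 ± 0.18 and 1.001 ± 0.15. Jun, a subunit of the AP-1 transcription factor, stood at 698, 585 and 485 CPM and then 737, 945 and 1217 CPM in RV and at 699, 789.8 and 1063 CPM and then 320.4, 374 and 907 CPM in LV (1.51 ± 0.298, adjusted p = 0.0981). Isg15 and Cgas, by 0.69 ± 0.11 and 0.698 ± 0.12, were the members of the antiviral and sensor lists for which this difference was called.

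**Figure D4:**
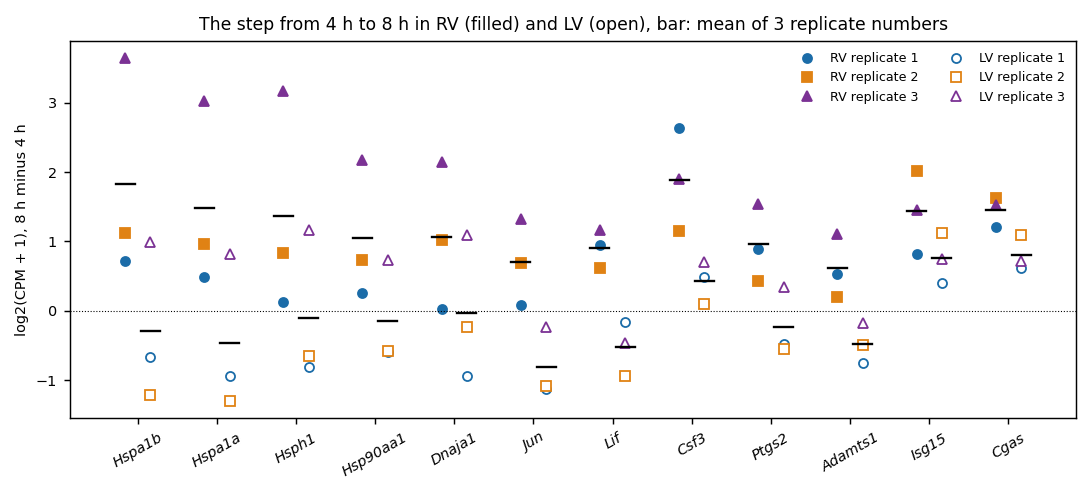
Difference of log2(CPM + 1) between 8 h and 4 h for 12 genes whose step was larger in RV, in RV (filled) and LV (open) for each replicate number, with bars at the mean of 3. For Jun, Lif and Adamts1 all 3 RV values lie above 0 and all 3 LV values below, and for Hspa1b, Hspa1a and Hsph1 replicate 3 is the highest in both ventricles.

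Early genes in RV itself were uneven. Of 27 immediate-early genes 21 were higher and 0 called, and the median ran from -0.14 in replicate 1 to 1.04 in replicate 3. Klf2, a shear-induced factor of endothelium, was above in all 3 libraries of 8 h (186, 119 and 149.8 CPM and then 212, 269.7 and 434 CPM), as was Fos (734, 629 and 445 CPM and then 763, 829 and 1099 CPM). Nr4a1, an orphan nuclear receptor, was below in all 3 (698, 646 and 541 CPM and then 376, 497 and 339 CPM). Atf3 overlapped. Of the cold-inducible RNA-binding proteins, Cirbp was below in all 3 libraries (33.5, 30.3 and 30.6 CPM and then 21, 23.2 and 22.4 CPM, unadjusted p = 0.0055), while Rbm3 and Srsf5 were above in all 3, Srsf5 at 193, 162 and 198 CPM and then 257, 247 and 307 CPM. None of the 3 was called.

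Genes of heart muscle and its fuel metabolism had medians below 0, unevenly between pairs and without calls in the 3 lists described here. Fatty acid oxidation had 15 of 17 genes lower, 8 of them below in all 3 libraries (7.05% of all genes were), and a median of -0.61, with -0.48, -0.02 and -1.46 in pairs 1, 2 and 3. Acadm, the medium-chain dehydrogenase, stood at 1065, 874 and 860.4 CPM and then 577, 875 and 205 CPM, and Pdk4, the kinase that spares glucose, at 1153, 1668 and 1916 CPM and then 1065, 1116 and 458 CPM. Angptl4, an inhibitor of lipoprotein lipase, was higher in each pair (30.5, 12.4 and 10.9 CPM and then 82.7, 14.9 and 47.6 CPM) and not called. The sarcomere had 18 of 19 genes lower, 15 of them in each pair, and a median of -0.39. Myh6, the main myosin heavy chain, stood at 33360, 33060 and 34930 CPM and then 23980, 31000 and 13080 CPM and Actn2 of the Z-disc at 1916, 1702 and 1581 CPM and then 1373, 1336 and 509.9 CPM. With offsets for the average length of the transcripts quantified, the log2 fold change of Myh6 was 0.017 in place of -0.57. In calcium handling 10 of 12 genes were lower, and Atp2a2, the calcium pump of the sarcoplasmic reticulum, stood at 15270, 16080 and 13440 CPM and then 10180, 13670 and 3698 CPM.

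In fatty acid oxidation, sarcomere and calcium handling the median of pair 2 was nearest to 0 and that of pair 3 lowest, and the summed cardiomyocyte markers were 41384, 46924 and 24875 CPM in replicates 1, 2 and 3 of 8 h against 54182 to 55460 CPM after 4 h. Atrial markers were high in replicate 1 of 8 h, at a sum of 775 CPM against 54.7 CPM in replicate 1 of 4 h, and Nppa, an atrial marker, stood at 45.9, 114 and 161 CPM and then 526, 77.2 and 154 CPM. The part of tissue composition in these differences was not tested.

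**Figure D5:**
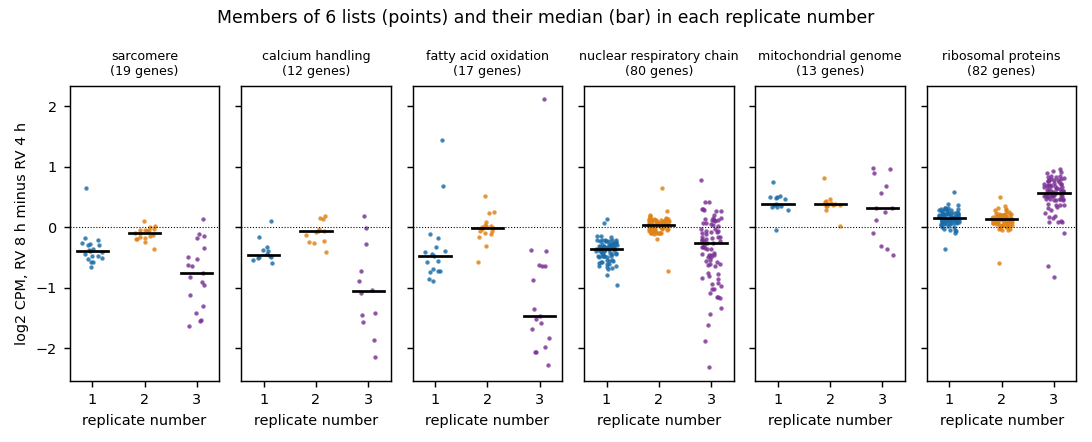
Log2 CPM of RV 8 h minus RV 4 h in each replicate number for the members of 6 lists (points) with their median (bar). Sarcomere, calcium handling and fatty acid oxidation genes lie lowest and are most spread in replicate 3 and lie near 0 in replicate 2, while the mitochondrial genome has a median between 0.31 and 0.39 in all 3.

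Transcripts of the mitochondrial genome and of the nuclear genes for the same complexes had medians on opposite sides of 0. All 13 mitochondrial protein genes were higher after 8 h, 7 of them with all 3 libraries of 8 h above those of 4 h (5.57% of all genes were), with medians of 0.39, 0.39 and 0.31 in the 3 pairs. mt-Co1, a subunit of cytochrome c oxidase, stood at 87530, 88670 and 86240 CPM and then 111000, 119100 and 107100 CPM, and mitochondrial genes took 26.1%, 27.7% and 26.9% of counts after 4 h and 34.2%, 33.6% and 33.3% after 8 h. None was called (0.39 ± 0.33 for mt-Co1, adjusted p = 0.558). Of 80 nuclear respiratory chain genes 69 were lower, with a median of -0.17 in the paired fit and of -0.35, 0.04 and -0.26 in the pairs, and 0 were called. Ndufs1, a subunit of complex I, stood at 729, 627 and 635 CPM and then 424, 589 and 128 CPM, and Atp5b of the ATP synthase at 4916, 4295 and 5119 CPM and then 3295, 4122 and 2039 CPM. Ribosomal protein genes were higher in 79 of 82, with a median of 0.33, and 0 of the 81 in the paired fit were called.

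No vessel or matrix gene of the lists was called. All 16 matrix genes and proteases were higher in the unpaired fit, 13 of them in each pair. Of the 16, 7 had an unadjusted p under 0.05, where 4.32% of all genes were higher at that p. Timp1, an inhibitor of matrix proteases, stood at 35.6, 16.7 and 25.7 CPM and then 68.2, 25 and 91.5 CPM (1.15 ± 0.26, adjusted p = 0.143), and Adamts4, an aggrecanase, at 424, 257 and 149 CPM and then 805, 408 and 867 CPM. Endothelial identity genes had a median of 1.12 in pair 3 but 0.15 and -0.15 in pairs 1 and 2. Tie1, an endothelial receptor, was above in all 3 libraries (104, 90.1 and 74.3 CPM and then 159, 108 and 189 CPM), and Cldn5 overlapped. Of the adhesion molecules, Selp stood at 207, 282 and 428 CPM and then 409.5, 286 and 808 CPM and Sele at 416, 401 and 339.9 CPM and then 459, 368 and 473 CPM. In the circadian clock, where 0 of 18 genes were called, Nr1d1 was below in all 3 libraries (142, 204 and 321 CPM and then 128, 122 and 141 CPM) and Per1 above (56.7, 46.8 and 66.7 CPM and then 67.2, 83.1 and 78.5 CPM). The unfolded protein and integrated stress response had a median of 0.03 and no gene with an unadjusted p under 0.05, with Hspa5 at 884, 845 and 782 CPM and then 712, 961 and 823 CPM.

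The 95% interval of the log2 fold change in the unpaired fit, which takes no account of the pairs, lay within 1.5-fold in both directions in 3875 of 14610 genes (26.5%) and within 2-fold in 9076 (62.1%). Among those within 1.5-fold were Cd59a, an inhibitor of complement lysis, with an interval from -0.398 to 0.203, and Psmc1, a proteasome ATPase, from -0.41 to 0.25. For Tnf the interval ran from -1.499 to 0.77 and for Nlrp3 from -1.44 to 1.001, where the paired fit gave -0.29 ± 0.21 and -0.12 ± 0.17. The unpaired interval of Ifit1 was from -0.82 to 3.497, and its paired value was 1.58 ± 0.37. The standard errors of these 3 genes were smaller in the paired fit. The median standard error was 0.24 in the unpaired fit and 0.20 in the paired fit.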

How the data were processed

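RNA from RV and LV of hearts stored for 0, 4 or 8 h was sequenced in 18 libraries, 3 per group. The authors quantified transcripts with kallisto and deposited estimated counts, which need not be whole, and TPM, which was not used. Estimated counts were summed over the transcripts of each gene of GENCODE on GRCm38 (110203 of 111462 transcripts matched) and rounded. Genes were filtered with filterByExpr, scaled with TMM and tested with edgeR 4.0.16 (R 4.3.3) in the 9 RV libraries, with all 3 times in 1 fit, and called where p after Benjamini-Hochberg adjustment was below 0.1 and the change exceeded 1.5-fold. Paired fits took the replicate number as a block, since libraries of equal number correlated above 0.1 in each pair of times in RV (0.11 to 0.49). Some libraries of unequal number passed 0.1 as well, up to 0.24 for replicate 2 of 4 h with replicate 1 of 8 h. These correlations come from the same values that the fits test, and so they do not establish that the libraries are pairs. The comparison with LV used all 18 libraries. The fit of 6 libraries was added after seeing the data. DESeq2 1.42.0 was an alternative. Fits were tested on simulated data. Kallisto divides reads between similar transcripts, and depth was 24832857 to 43417220 counts in the 6 libraries.

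Members and lists were chosen with earlier results of these data known. Named genes were the first 3 tested members and the extremes of each list, the 12 in each direction with the smallest p, a mean of at least 5 CPM and no overlap, those with the smallest p in the comparisons of steps, and genes of proteins the study measured. Other genes that are named were chosen after their values were seen. Promoter sequences are from RefSeq. Some items are not reported here.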

Additional observations from a re-analysis of the deposited data

Results flagged for a closer look

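With LV and RV of a heart as a replicate block, the step from 4 h to 8 h was larger in RV in 54 genes and smaller in 5, by a test of the difference itself. The 18 genes of the lists or named genes among them had differences of log2 fold change, RV minus LV, of 2.13 for Hspa1b, 1.96 for Hspa1a, 1.48 for Hsph1, 1.21 for Hsp90aa1 and 1.095 for Dnaja1, which are heat shock chaperones. Those of cytokines and inflammatory enzymes were 1.495 for Csf3, 1.475 for Lif, 1.195 for Ptgs2 and 1.001 for Has1. Those of early and vascular genes were 1.51 for Jun, 0.745 for Klf6, 0.683 for Klf11, 1.098 for Adamts1, 0.795 for Thbd, 0.725 for Adm and 0.715 for Anxa1. The interferon-induced genes were Isg15 with 0.685 and Cgas with 0.698. Without the block 0 genes were called, with 215 at an unadjusted p under 0.05. With the block, the 59 calls became 0 without heart 2 or 3 of 4 h or heart 1 of 8 h. They became 13, 4 and 400 without heart 1 of 4 h, heart 2 of 8 h or heart 3 of 8 h.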

How the results depend on the processing

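The count of 0 called genes became 1 with all 18 libraries, 43 with DESeq2, 52 with DESeq2 and transcript length offsets, and 2 without both replicate 3 libraries. In paired fits with a replicate block it was 238 in the 6 libraries (620 with DESeq2). Without pair 1, 2 or 3 it was 387, 783 and 745 there, more than in all 6 libraries. Of the 238, 170, 216 and 235 were called again in these refits. The 238 were taken from the same pairs, so that being called again is not independent support. With the block in the 9 libraries without pair 3 the count was 183. Of the 238, 0 were called with the block in all 9 libraries, and all kept their sign there. The 961 genes at an unadjusted p under 0.05 became 1748 with all 18 libraries, 2263 with the replicate block, 2313 and 1501 with the block without pair 2 or 3, 2058 in the paired 6 libraries (1992 with DESeq2) and 1472, 3000 and 2073 there without pair 1, 2 or 3, and ranged from 516 (without RV_4h replicate 2) to 3238 (without RV_8h replicate 2).

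The 20 genes whose second step differed from the first became 7 at an adjusted p under 0.05, 44 without a filter, 61 with all 18 libraries, 242 with DESeq2, 227 with DESeq2 and length offsets, 84 with the replicate block and 1, 0 and 460 with the block without pair 1, 2 or 3, and ranged from 0 to 105 when 1 library was left out. The 0 genes whose step differed between RV and LV became 59 with the heart as a replicate block, and 13, 4 and 400 without heart 1 of 4 h, heart 2 of 8 h or heart 3 of 8 h. With the block the count was 0 without heart 2 or 3 of 4 h or heart 1 of 8 h.

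The log2 fold change without RV_8h replicate 3, the lowest, and without RV_4h replicate 3, the highest, was -0.89 and 3.17 for Mx1, -0.13 and 3.81 for Mx2, -0.61 and 1.87 for Oas3, -0.14 and 3.45 for Gbp2, -0.029 and 1.87 for Irgm2, -0.27 and 2.98 for Irf7, -0.44 and 3.62 for Cxcl10, -0.54 and 5.02 for Cxcl11, -0.50 and 2.46 for Tlr3, -0.13 and 1.94 for Ifih1, -0.92 and 3.92 for Nlrc5, -0.11 and 2.22 for Casp1, -0.087 and 2.06 for Acod1, -0.40 and 2.21 for Saa3, -0.10 and 2.84 for Cfb and -0.43 and 2.89 for Mlkl. When 1 library was left out Dbp ranged from -0.86 to 0.19 and Col1a1 from -0.021 to 0.55. Nppa was -0.31 and -0.27 with the replicate block without pair 1, in 6 and in 9 libraries. Myh6 was 0.017 in edgeR and 0.028 in DESeq2 with length offsets. The cause of these changes was not tested.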
